A study of Mus musculus with 18 samples.

Results

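Resting conventional CD4 T cells (Tconv) from the spleens of 3 mixed bone-marrow chimeras were compared between the 2 genotypes that shared each mouse. The members are the 6735 chimera cells that the authors' deposited annotation calls resting Tconv, of 8556 chimera cells and of 26652 cells in the whole series. They comprise 1811, 651 and 1771 ∆Foxp3 cells and 515, 1375 and 612 WT cells of mice 1, 2 and 3. The recipients, which carry CD45.2, were 7 weeks old when they were irradiated with 1000 rad and given marrow depleted of CD3+ cells, 50% from each genotype, and spleens were taken 10 weeks later. The age label of all 6 chimera samples is 16 weeks. WT donors were B6 Foxp3-IRES-GFP x CD45.1 males, in which GFP is made from the Foxp3 transcript. Mutant donors were B6 Foxp3DeltaEGFPiCre males, in which the Foxp3 allele is disrupted and carries EGFP and Cre, crossed to ROSA-YFP, a YFP reporter at the ROSA locus, and CD45.1/2. Donors of both genotypes were 21 days old. TCRβ+ CD4+ cells were sorted as CD45.1+ CD45.2- (WT) or CD45.1+ CD45.2+ (∆Foxp3), and each mouse had a hashtag of its own. All cells passed through irradiation chimerism, and the WT cells in the same spleens include Treg. The sources used here do not give how many donors supplied the marrow of each genotype, so a difference between genotypes and one between donors cannot be told apart.

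Values from 2 sets of intact male mice are set beside the chimera values. In the first, run with the V2 kit by the sample labels though the deposited cell metadata name V3 for all cells, ∆Foxp3 mice (B6 Foxp3DeltaEGFPiCre x ROSA-YFP) and WT mice (B6 Foxp3-IRES-GFP) were both 3 weeks old, with 2 samples each. In the second, run with the V3 kit, ∆Foxp3 mice of the same strain were 3 weeks old and WT mice (B6 Foxp3-IRES-GFP x CD45.1) were 9 weeks old, with 2 samples each, so age and genotype change together. The 2 samples of each V3 intact group carry 1 hashtag and may come from 1 mouse, and nothing says that the V2 samples are separate animals, so p-values there may measure technical spread only.

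Foxp3 encodes the lineage factor of regulatory T cells (Treg), which restrain other T cells. Mice without it lose that restraint, and their conventional T cells become activated whatever those cells' own genotype. In a mixed chimera WT Treg are present and cells of both genotypes share 1 environment. The comparison therefore asks how resting Tconv of the 2 genotypes differ when the host is the same. The 2 genotypes also differ, by construction, at Ptprc, which encodes CD45 and whose alleles serve as the CD45.1 and CD45.2 marks, and at the ROSA locus, a site commonly used to insert reporters. A segment of chromosome around such a locus travels with it when strains are crossed.

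The 6 samples held between 3246913 and 10138841 UMIs (unique molecular identifiers, counted transcripts) in resting Tconv, and the median cell held 5038 to 6696 UMIs. Hashtagged samples shared 2 10x channels: channel A held ∆Foxp3 cells of mice 1 and 3 and WT cells of mouse 2, and channel B the others. Median mitochondrial content was 5.78% to 6.24%, and 3 cell barcodes occurred in more than 1 chimera sample. The class matched its name. The naive T cell genes Lef1 and Ccr7 had medians of 706 and 349.9 counts per 1000000 UMIs (CPM) against 216 and 115 CPM in the activated Tconv of the same samples. S100a4 and Cd44, which mark activated cells, stood at 26.2 and 16.2 CPM against 928 and 128 CPM. Defining genes of other lineages were low: Cd8a and Lyz2 reached 1.56 and 2.25 CPM at most.

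Resting Tconv made up 84.8%, 71.6% and 85.3% of the ∆Foxp3 CD4 cells of mice 1, 2 and 3 and 68.9%, 74.3% and 72.9% of the WT cells. The share was higher among ∆Foxp3 cells in 2 of 3 mice, and the mean difference was 8.51 percentage points ± 9.87 (SD, n = 3; exact paired permutation test, two-sided, p = 0.5). With 3 mice the exact permutation test cannot go below p = 0.25. Within the class, the authors' main cluster held 83.2% to 85.4% of cells in every sample and the cluster named for Irf7 held 10.2% to 12.3%. The cluster named TCRhi held 4.42%, 4.45% and 4.46% of ∆Foxp3 cells and 4.47%, 5.53% and 5.39% of WT cells of mice 1, 2 and 3. It was smaller among ∆Foxp3 cells in 3 of 3 mice, with a mean difference of -0.684 percentage points ± 0.555 (SD, n = 3; exact paired permutation test, two-sided, p = 0.25).

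The transcript of the targeted gene was nearly absent. Foxp3 UMIs were found in 2 of 1811, 0 of 651 and 2 of 1771 ∆Foxp3 cells and in 9 of 515, 6 of 1375 and 1 of 612 WT cells of mice 1, 2 and 3. These are shares of 0.110%, 0% and 0.113% and of 1.75%, 0.436% and 0.163%. The count of 0 allows a share of up to 0.461%, and the exact 95% binomial interval of the highest share is 0.802% to 3.29%; both cover counting error only. Resting cells of sorted GFP- Tconv from 9-week-old WT mice, a population that should lack Foxp3, held no Foxp3 UMI in 308 and 108 cells, which allows up to 0.974% and 2.78%, at median depths of 5198 and 6613 UMIs. GFP stood at 3.45, 7.56 and 2.05 CPM in ∆Foxp3 cells and at 9.24, 3.79 and 3.52 CPM in WT cells. The sorted GFP- cells had 1.81 and 2.81 CPM. Only ∆Foxp3 cells of mouse 3 lay within that range, and all other chimera samples were above it. WT cells of mouse 1 and ∆Foxp3 cells of mouse 2 were the highest, and the ranges of the 2 genotypes overlap. Cre was counted 2, 0 and 1 times in ∆Foxp3 cells and not at all in WT cells, and YFP was 0 in every cell.

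Of 9868 genes tested between the genotypes with mouse as a block, 235 passed an adjusted p of 0.05 (edgeR's quasi-likelihood test, Benjamini-Hochberg adjustment), which is 2.38%. Of these, 151 (1.53% of tested genes) were higher in ∆Foxp3 cells and 84 (0.851%) were lower. Log2 changes include the model's scaling between samples and CPM do not, so the 2 can differ in size and, where small, in sign. Most differences were small: the median absolute log2 change of the called genes was 0.31, and 36 of them changed at least 2-fold, 18 in each direction. The direction was the same in all 3 mice for 211 of the 235, and for 195 the 3 ∆Foxp3 and 3 WT samples did not overlap. Of all 9868 tested genes, 1955 did not overlap. How many of them had 1 direction in all 3 mice was not counted, and the calls were chosen on these same samples. The count rests on which mice are used: without mouse 1 it was 102, without mouse 2 it was 358 and without mouse 3 it was 26. Without mouse 2 the 2 genotypes lie in different 10x channels. With channel added to the model the count was 356, of which 227 were among the 235. That model leaves even fewer residual degrees of freedom than the main one, so its count cannot show that the calls are free of channel.

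Called genes were more frequent near 2 of the 3 loci at which the donors differ. Within 20 Mb of Ptprc (chr1:138062861-138175708, mm10) 9 of 117 tested genes passed, or 7.69%, and within 20 Mb of Gt(ROSA)26Sor (chr6:113067428-113077333), the non-coding transcript of the ROSA locus, 9 of 138 passed, or 6.52%. Within 20 Mb of Foxp3 (chrX:7573644-7595245) none of 53 passed with edgeR, DESeq2 without its independent filtering or limma-voom, though 5 had an unadjusted p under 0.05. Of all 9868 tested genes 903 had an unadjusted p that low, and 53 genes are too few to set the Foxp3 region apart. Elsewhere 217 of 9560 passed, or 2.27%. With DESeq2, which gave an adjusted p to 876 genes, 1 gene near the loci and 108 elsewhere passed. How many of the 876 lie near the loci was not counted, so those shares cannot be ordered. Without DESeq2's independent filtering 7 of 308 tested genes near the loci passed and 94 of 9560 elsewhere, the same order as with edgeR. The plot of log2 change against distance shows the 9 calls near Ptprc crowded on 1 side of it.

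**Figure D1:**
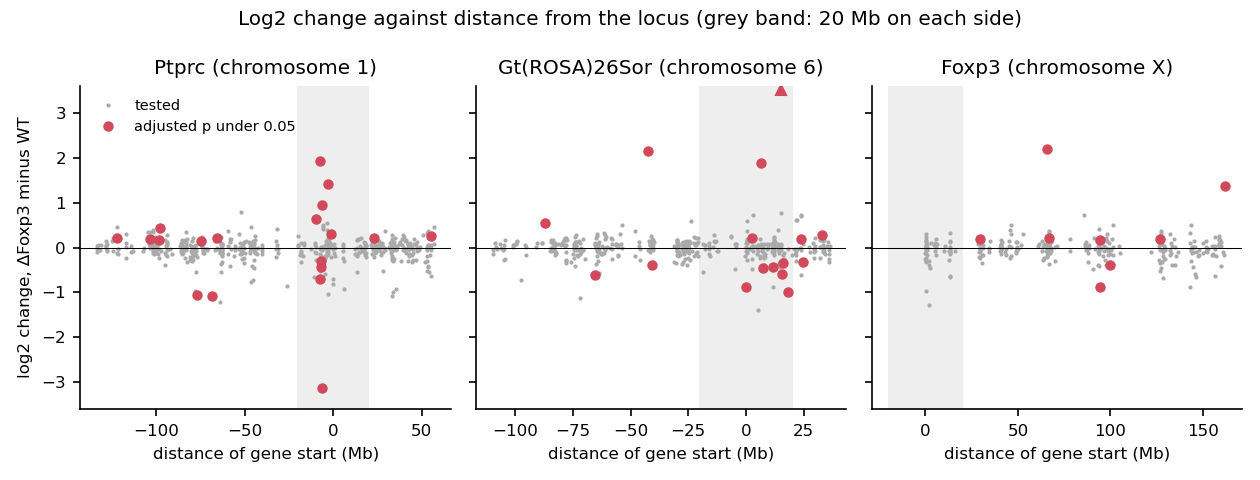
Log2 change (∆Foxp3 minus WT) of each tested gene on chromosomes 1, 6 and X against the distance of its start from Ptprc, Gt(ROSA)26Sor or Foxp3 in Mb. Red points passed an adjusted p of 0.05, the grey band marks 20 Mb on each side and the triangle at the top edge is Nrip2, whose fitted value lies beyond the axis. All 9 calls near Ptprc lie on its left side within 10 Mb, where Ctse is the lowest point.

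The gene with the lowest p of the whole comparison lay near Ptprc. Ctse, which encodes the aspartic protease cathepsin E (chr1:131638306-131675505), had 15.9, 20.5 and 15.4 CPM in ∆Foxp3 cells of mice 1, 2 and 3 and 147, 159 and 163 CPM in WT cells. Every WT sample was thus far above every ∆Foxp3 sample, and the fall was 8.71-fold (log2 change -3.12, SE 0.08; edgeR adjusted p = 4.81e-25). The neighbouring Cd55, which encodes a surface protein that protects cells from complement, had 47.6, 49.8 and 43.0 CPM in ∆Foxp3 cells and 80.1, 82.6 and 80.5 CPM in WT cells. Its groups did not overlap either (log2 change -0.70, SE 0.07; edgeR adjusted p = 4.99e-08).

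Both genes were also lower in ∆Foxp3 cells of the intact mice. Ctse stood at 166 and 172 CPM in resting Tconv of V2 WT mice, whose strain label names no CD45.1, and at 150 and 135 CPM in V3 WT mice, whose label does. In intact ∆Foxp3 mice, whose label names no CD45.1, it stood at 12.1 and 20.6 CPM (V2) and 11.5 and 10.9 CPM (V3), close to the chimera ∆Foxp3 cells of the CD45.1/2 label. Ctse was high in all 7 WT samples and low in all 7 ∆Foxp3 samples, with log2 changes of -3.54 (V2) and -3.97 (V3). Cd55 was lower in intact ∆Foxp3 mice, at 5.70 to 11.8 CPM, than in chimera ∆Foxp3 cells, while WT levels ranged from 53.3 to 82.6 CPM over the 7 WT samples. Its log2 changes of -3.09 (V2) and -3.29 (V3) were accordingly larger than in the chimeras, and the V3 difference from the chimera value was past the threshold (log2 difference -2.58; edgeR adjusted p = 8.55e-10).

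Ptprc itself did not pass. It had 625, 578 and 625 CPM in ∆Foxp3 cells and 656, 615 and 610 CPM in WT cells, ranges that overlap (log2 change 0.05, SE 0.04; edgeR adjusted p = 0.819). The log2 change includes the model's scaling between samples and the CPM do not, so its sign differs from that of the mean CPM. The other calls near Ptprc went in both directions. Mapkapk2, a kinase downstream of p38, and Ikbke, a kinase of the NF-κB and interferon pathways, were lower in ∆Foxp3 cells with log2 changes of -0.44 and -0.29. Higher were Mfsd4, a transporter-like protein (0.95), Cxcr4, the receptor for the chemokine CXCL12 (0.63), and Zfp281, a zinc finger factor (0.30). Rnpep, an aminopeptidase, and the non-coding Gm16083 also rose (1.42 and 1.94). They fall under the 10 CPM set for named genes and were picked out after their values were seen. Cxcr4, Zfp281, Ikbke, Mapkapk2 and Mfsd4 kept their direction in the alternatives that gave a value but missed the threshold in 7, 6, 4, 3 and 2 of them.

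At the ROSA locus the transcript of the insertion site was lower in the mutant cells. Gt(ROSA)26Sor had 20.2, 19.1 and 19.7 CPM in ∆Foxp3 cells and 38.2, 38.4 and 39.0 CPM in WT cells. The samples of each genotype lay close together and the groups did not overlap (1.83-fold lower, log2 change -0.87, SE 0.10; edgeR adjusted p = 3.63e-07). In intact mice it stood at 23.5 and 28.5 CPM in ∆Foxp3 against 48.5 and 53.0 CPM in WT resting Tconv (V2), and at 1.81 and 0.991 CPM against 35.5 and 33.6 CPM (V3). The V3 mutants thus nearly lacked it, and the difference between the V3 and chimera contrasts was past the threshold (log2 difference -4.06; edgeR adjusted p = 1.42e-09). The labels used here do not say how many copies of the reporter each ∆Foxp3 group carries.

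Other genes near the ROSA locus differed too. Clec2i, a C-type lectin of the natural killer gene complex, had 37.6, 35.6 and 41.3 CPM in ∆Foxp3 cells and 61.9, 65.1 and 58.3 CPM in WT cells (log2 change -0.59, SE 0.08; edgeR adjusted p = 1.20e-05). It was also lower in ∆Foxp3 resting Tconv of intact mice, with log2 changes of -1.29 (V2) and -1.90 (V3). Ybx3, a cold shock RNA-binding protein (-0.99), Cecr5 (-0.45), Ptms, encoding parathymosin (-0.43), and Cd69, an early activation marker of lymphocytes (-0.33), fell in the chimeras, and Rpl32, a ribosomal protein gene, rose (0.20). Ybx3, Ptms and Cd69 had the opposite direction in V3 intact mice (2.38, 0.95 and 0.94). Wnt5b and Nrip2, which are below 10 CPM and were picked out after their values were seen, were higher in ∆Foxp3 cells. Nrip2 had 64 UMIs in ∆Foxp3 cells and none in WT cells, at least 12.5-fold higher if the WT group is set to a floor of 3 counts.

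Away from the 3 loci the largest rise among genes with a mean of at least 10 CPM was in Crip1, which encodes a small LIM-domain protein (chr12:113146316-113153879). It had 847, 646 and 734 CPM in ∆Foxp3 cells and 214, 237 and 172 CPM in WT cells, with no overlap (3.78-fold, log2 change 1.92, SE 0.07; edgeR adjusted p = 1.47e-20). Against intact mice it was the WT chimera cells that stood apart: resting Tconv of V2 mice had 869 and 1002 CPM in ∆Foxp3 and 896 and 918 CPM in WT samples, and V3 WT mice had 717 and 683 CPM. V3 ∆Foxp3 mice had 2294 and 2547 CPM. Crip1 is one of the activation and memory genes listed, and no other member of that list rose in the chimera cells.

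Ttc13, which encodes a tetratricopeptide repeat protein (chr8:124671332-124721983), had 74.8, 70.3 and 84.6 CPM in ∆Foxp3 cells and 24.9, 34.7 and 31.7 CPM in WT cells (log2 change 1.39, SE 0.09; edgeR adjusted p = 2.46e-13). It was higher in ∆Foxp3 cells in each other comparison as well, by 0.74 (V2), 0.64 (V3) and 1.001 (activated Tconv of the chimeras) on the log2 scale. Ctse and Ttc13 were the 2 called genes that passed in the same direction in all 4 comparisons; the chimera comparisons share mice, and they were picked out by that count. Fam46a, a nucleotidyltransferase family gene, had 124, 94.5 and 119 CPM against 73.6, 67.3 and 68.1 CPM (log2 change 0.77, SE 0.07; edgeR adjusted p = 8.78e-10). It fell in intact ∆Foxp3 mice (-1.02 in V2 and -0.66 in V3).

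Sox4, a transcription factor of developing T cells, was lower in ∆Foxp3 cells. It had 15.2, 14.2 and 15.7 CPM in ∆Foxp3 cells and 27.1, 34.4 and 37.0 CPM in WT cells, again with no overlap (log2 change -1.02, SE 0.12; edgeR adjusted p = 2.27e-07). Myb, a factor of progenitors and proliferating cells, also fell (-0.65). Id3, which encodes an inhibitor of E proteins that sets the threshold of T cell development, was lower at 87.3, 99.2 and 105 CPM against 151, 137 and 144 CPM (-0.47; edgeR adjusted p = 3.91e-06); it is outside the rule for named genes and was picked out after its values were seen. Further calls elsewhere were higher Rbm45 (1.04), Zfp932 (0.75), Erdr1 (0.69), Lgmn (0.64), Pot1a (0.55) and 5830416P10Rik (0.50), and lower Hdgfrp3 (-0.78), Fabp5 (-0.76), Cdk5rap1 (-0.69), Klhdc4 (-0.69) and Tnf (-0.67). The calls of 5830416P10Rik, Pot1a and Tnf were lost in 8, 7 and 7 alternatives, and Tnf had -0.44 in the main cluster (edgeR adjusted p = 0.514). Ide, the insulin-degrading enzyme, rose by 0.58 and was the 1 call among 4 tested genes on a list of genes known to differ between B6 sublines.

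**Figure D2:**
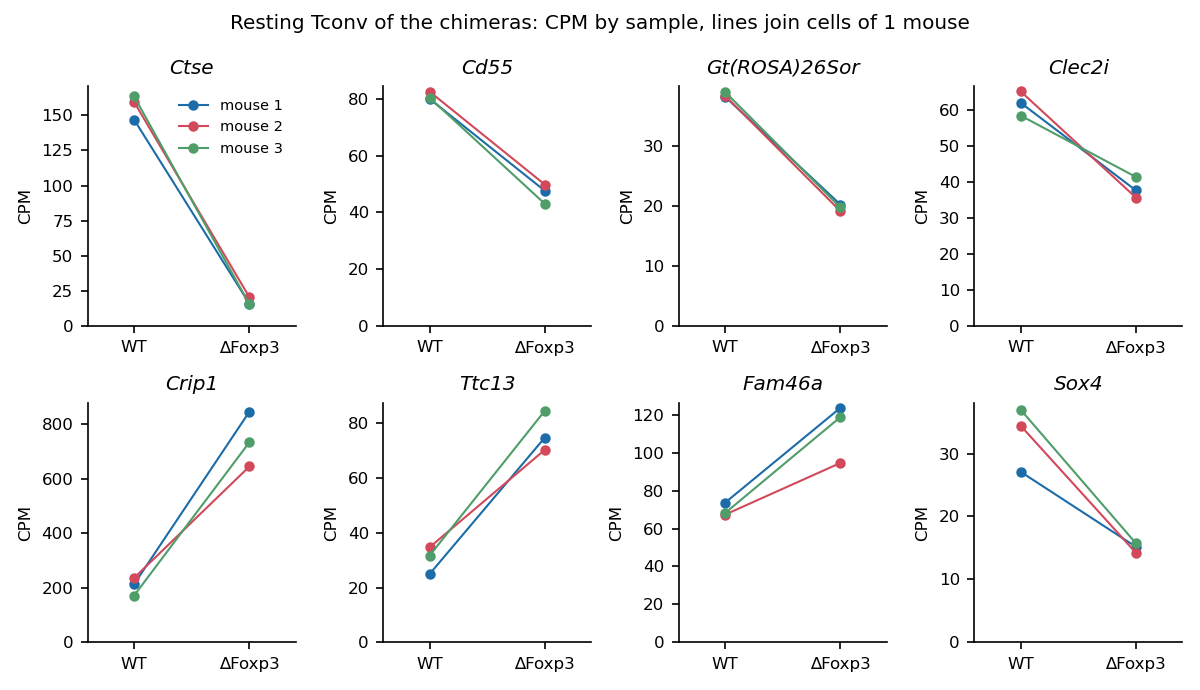
CPM in resting Tconv of the chimeras for 8 genes; each line joins the WT and ∆Foxp3 cells of 1 mouse, and each axis starts at 0. In each of the 8 panels the 3 ∆Foxp3 values lie on 1 side of the 3 WT values.

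On chromosome 17 a pair of near-identical gene copies moved in opposite directions. Tagap1 (chr17:6955011-6961156) had 23.4, 20.2 and 20.2 CPM in ∆Foxp3 cells and 5.54, 6.89 and 7.54 CPM in WT cells (log2 change 1.74, SE 0.16; edgeR adjusted p = 2.16e-09), while Tagap (chr17:7926000-7934897) had 28.3, 26.03 and 24.7 CPM against 56.7, 41.0 and 57.8 CPM (-0.89). Both encode T cell activation GTPase-activating proteins. Summed, the pair came to 51.7, 46.3 and 44.99 CPM against 62.2, 47.9 and 65.4 CPM. The neighbouring copies Rnaset2b and Rnaset2a, which encode ribonuclease T2, showed the same split: Rnaset2b fell (-0.78) and Rnaset2a rose (0.28), and their sum was 100.2, 103 and 106 CPM against 122.9, 117 and 128 CPM. In mean CPM the sum of Tagap and Tagap1 differed less between the genotypes than either copy did. The sum of Rnaset2a and Rnaset2b differed less than Rnaset2b but more than Rnaset2a. Reads of such copies can be assigned to the wrong member, so the values of each are uncertain.

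The gene lists describe the state of the cells. Over all tested genes the median log2 change was -0.0012. Of 24 naive and resting T cell genes, 3 rose (Dapl1, Il7r and Npc2), 3 fell (Ctse, Cd55 and Actn1) and 18 did not pass, with a median of 0.05. Dapl1, a naive T cell gene, had 443, 502 and 391 CPM against 335, 341 and 349 CPM (log2 change 0.47, SE 0.06; edgeR adjusted p = 3.93e-07). Il7r, the receptor for the survival cytokine IL-7, rose by 0.18. Lef1 and Ccr7 were among the 18, with log2 changes of 0.08 and 0.06. On the list of resting CD4 T cell markers 1 of 10 rose, and none of 15 T cell identity genes passed with any of the 3 tools, 1 having an unadjusted p under 0.05. Ly6c1, a surface protein of the Ly6 family, rose, with 212, 168 and 244 CPM against 152, 146 and 151 CPM (0.56; edgeR adjusted p = 1.51e-07).

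Of the genes of activation that passed over all resting Tconv, most were lower. Of 30 activated and memory genes 6 fell (Tnfrsf4, Tnfrsf9, Cxcr3, S100a6, Hopx and Cd69), 1 rose (Crip1) and 23 did not pass; the list's median was -0.16. Of 22 immediate early genes of T cell receptor signalling 5 fell, with a median of -0.22: Nfkbid (-0.63) and Nfkbia (-0.21), both inhibitors of NF-κB, Zfp36l1 (-0.35), which promotes decay of AU-rich mRNAs, Dusp2 (-0.22) and Jund (-0.17). Zfp36l1 had 109, 116 and 106 CPM in ∆Foxp3 cells and 149, 139 and 162 CPM in WT cells. Within the main cluster alone 2 of 29 activated and memory genes fell and 2 rose, Crip1 and Lgals1. Of the immediate early genes 2 of 19 fell and none rose there. The medians were -0.06 and -0.09. There Nfkbid, Nfkbia, Dusp2 and Jund had log2 changes of -0.37, -0.16, -0.19 and -0.15, and Cd69 and Cxcr3 of -0.14 and -0.45, none past the threshold. Nfkbid stood at 200.5 CPM ± 41.8 in ∆Foxp3 and 327 ± 96.8 in WT cells of the TCRhi cluster (SD, n = 3) and at 9.04 ± 0.628 and 12.4 ± 3.57 in the main cluster. The TCRhi share was lower in ∆Foxp3 cells of every mouse, and its part in these falls was not tested beyond the main cluster. Without cells that hold UMIs of at least 2 of 8 Treg markers, the falls numbered 1 of 29 and 2 of 21 on these lists, with medians of -0.03 and -0.11. The rises numbered 2 and 0, so most calls on the first list were then no longer falls.

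Genes of the Treg signature were lower in ∆Foxp3 cells. Of its 40 members 25 were tested. Of the 25, 10 fell, none rose and 15 did not pass, with a median of -0.66. Tnfrsf4, which encodes the costimulatory receptor OX40, had 12.6, 16.9 and 9.61 CPM in ∆Foxp3 cells and 40.04, 29.8 and 24.9 CPM in WT cells (log2 change -1.21, SE 0.13; edgeR adjusted p = 1.21e-07). Ikzf2, the transcription factor Helios, had 7.79, 12.5 and 6.85 CPM against 26.8, 17.4 and 15.6 CPM (-1.08, SE 0.17; edgeR adjusted p = 0.000196). Neither gene's groups overlapped, though mouse 2 had the narrowest gap in both. Tnfrsf9, the receptor 4-1BB, fell by 1.01 on the log2 scale. Il2ra, an IL-2 receptor subunit, Ctla4, an inhibitory receptor, and Gpr83 had log2 changes of -1.35, -1.06 and -0.89. Lrrc32, a surface anchor of latent TGF-β, stood at 0.0986 to 0.667 CPM against 1.55 to 5.54 CPM. Members of the list with low counts could pass the filter only through WT cells, so the number that passed is no measure of the list.

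Of 8 Treg markers 7 were tested and 5 fell; Tnfrsf18 and Nrp1 had log2 changes of -0.08 and -0.54 (edgeR adjusted p = 0.83 and 0.629). The summed level of the 8 Treg markers was 83.0, 103 and 86.5 CPM in ∆Foxp3 cells and 166, 121 and 121 CPM in WT cells. Foxp3 was at 0 in ∆Foxp3 cells of mouse 2. Cells with UMIs of at least 2 of the markers made up 3.203%, 7.68% and 3.73% of ∆Foxp3 cells and 10.3%, 6.55% and 8.17% of WT cells, a higher share among ∆Foxp3 cells in mouse 2. Leaving out the 50 to 90 cells per sample that held UMIs of 2 or more of these markers left 2 falls among 20 tested members of the Treg signature and a median of -0.20, and Tnfrsf4 and Ikzf2 then had log2 changes of -0.43 and -0.17 (edgeR adjusted p = 0.314 and 0.908). That alternative removes cells by genes of the list itself. Leaving out only cells with a Foxp3, GFP or Cre UMI gave 6 falls among 24 and a median of -0.38. In such sums of UMIs, fewer cells that express a gene and less RNA per cell cannot be told apart.

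**Figure D3:**
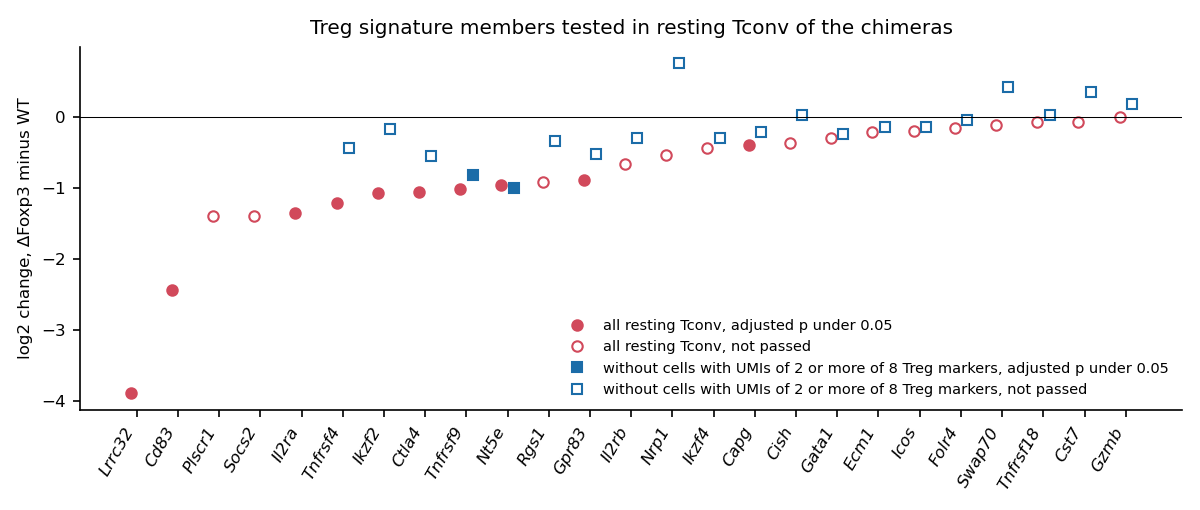
Log2 change (∆Foxp3 minus WT) of the 25 tested Treg signature genes in all resting Tconv (circles) and without cells with UMIs of at least 2 of 8 Treg markers (squares); filled symbols passed an adjusted p of 0.05, and a gene without a square had too few counts left to be tested. Filled circles number 10 and filled squares 2.

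The largest group of higher genes was that of cytosolic ribosomal proteins, the structural parts of the ribosome. Of 79 such genes, gathered by symbol after their values were seen, 66 rose in ∆Foxp3 cells, none fell and 13 did not pass; 78 of the 79 estimates were positive, with a median log2 change of 0.18 and a highest of 0.24. They make up a large part of these cells' RNA: 41.0%, 41.5% and 40.7% of UMIs in ∆Foxp3 cells of mice 1, 2 and 3 and 38.2%, 39.0% and 39.0% in WT cells. All 3 ∆Foxp3 samples were above all 3 WT samples, by 1.71 to 2.80 percentage points within a mouse. The log2 changes include the model's scaling between samples and the shares do not, so the shares differ by less than the median log2 change. The channel that held ∆Foxp3 cells was A in mice 1 and 3 and B in mouse 2. Without mouse 1, 2 or 3 the number that rose was 16, 54 or 0 of 79, with medians of 0.16, 0.18 and 0.20, and without mouse 2 the number that fell was 2. Without mouse 3, 75 of the 79 still had an unadjusted p under 0.05 with edgeR.

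Transcripts of ribosomal protein genes characteristically begin with a C followed by a run of pyrimidines, the 5′ terminal oligopyrimidine tract, through which growth signals control their translation. Of the 79 genes, 58 were found in a RefSeq table of gene starts on GRCm38.p6, and for 14 of them (24.1%) an annotated start begins with C followed by at least 4 bases that are each C or T, on the transcribed strand. Of all 27025 genes listed there, 813 (3.01%) do. Within 5 bases of a start it was 48.3% of the ribosomal protein genes against 21.2%. The starts below are shown because these members rose together and share this feature. They are 4 genes that passed, with tracts of 13, 10, 9 and 9 bases in the order shown. They are not a full ranking by tract length, since not every gene that passed was considered. Each gives 10 bases before and 20 bases from the start, 5′ to 3′, with the tract in capitals.
Fau, chr19:6057937-6057966 (+): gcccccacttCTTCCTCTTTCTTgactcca
Rps10, chr17:27635225-27635254 (-): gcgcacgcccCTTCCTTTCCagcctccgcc
Rps18, chr17:33955646-33955675 (-): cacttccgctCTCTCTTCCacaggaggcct
Rps6, chr4:86857348-86857377 (-): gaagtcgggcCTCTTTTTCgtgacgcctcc

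Of these 4, Rps18 had the largest rise of the 79 genes, with 4452, 4348 and 4458 CPM in ∆Foxp3 cells and 3902, 4094 and 3995 CPM in WT cells (log2 change 0.24, SE 0.04; edgeR adjusted p = 0.000194). Fau, Rps10 and Rps6 rose by 0.20, 0.19 and 0.19. A tract at the start is a description of the sequence, and its part in the rise was not tested.

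In V3 resting Tconv 77 of the 79 fell in ∆Foxp3 mice and none rose, with a median of -0.69, and their share of UMIs was 30.2% and 28.5% against 40.5% and 40.4% in WT mice. In V2 mice 4 rose, 20 fell and the others did not pass, with 26 positive estimates and a median of -0.07. In the activated Tconv of the chimeras the median was 0.35 and 78 of 79 estimates were positive, but none passed with edgeR, 76 having an unadjusted p under 0.05.

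**Figure D4:**
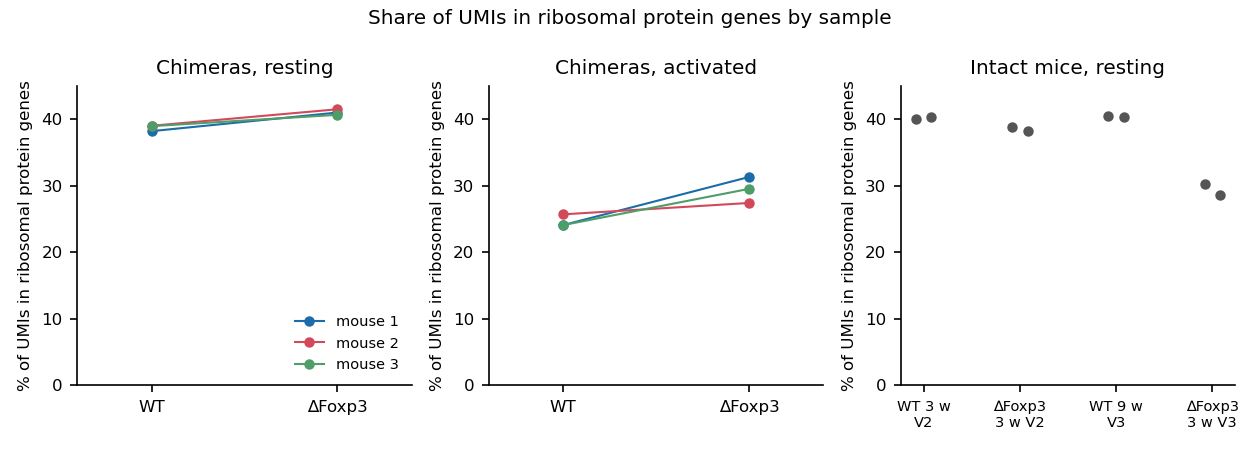
Percent of UMIs in 79 ribosomal protein genes by sample: resting (left) and activated Tconv (middle) of the chimeras, lines joining the cells of 1 mouse, and resting Tconv of intact mice (right), with age in weeks and kit version. ∆Foxp3 values exceed WT values in each of the 3 chimera mice, while V3 ∆Foxp3 intact samples, at 30.2% and 28.5%, are the lowest resting samples.

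Transcripts of the mitochondrial genome rose alongside. Of 12 tested, 6 rose, none fell and all 12 estimates were positive, with a median of 0.13. Summed over the 13 listed, they came to 59102, 60242 and 60543 CPM in ∆Foxp3 cells and 56184, 59160 and 58307 CPM in WT cells. These sums lack the model's scaling between samples, and their ranges overlap. mt-Nd3, a subunit of complex I, had 1072, 1173 and 1105 CPM in ∆Foxp3 cells and 881, 910 and 908 CPM in WT cells (log2 change 0.41, SE 0.04; edgeR adjusted p = 5.62e-08), and mt-Nd2 and mt-Nd4 rose by 0.23 and 0.17. Of 24 nuclear-encoded respiratory chain genes, 22 estimates were positive and none passed with edgeR, DESeq2 or limma-voom; 3 had an unadjusted p under 0.05, and the median was 0.05. Median mitochondrial content per cell was higher in ∆Foxp3 cells in all 3 mice, by 0.163 percentage points ± 0.147 (SD, n = 3; exact paired permutation test, two-sided, p = 0.25, the smallest it can give). The part of this content in the rise of single transcripts was not tested.

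Among markers of other cell types, those of erythroid cells stood apart. Globin genes Hba-a1, Hba-a2, Hbb-bs and Hbb-bt summed to 10.5, 2.45 and 10.9 CPM in ∆Foxp3 cells and to 2.77, 79.5 and 294 CPM in WT cells. WT cells of mice 2 and 3 were thus far above the rest and WT cells of mouse 1 lay among the ∆Foxp3 samples. All 4 genes fell in ∆Foxp3 cells, Hba-a2 by the most (log2 change -6.13, SE 0.35; edgeR adjusted p = 7.40e-15). In mouse 1, where the globin sum was low in both genotypes, Ctse, Crip1, Ttc13 and Gt(ROSA)26Sor differed in the same direction as in the other mice. These genes had to have 1 sign in all mice to be named, so mouse 1 could not differ. The part of erythroid RNA in the calls was not tested. Of 8 tested B cell markers Igkc, the immunoglobulin kappa constant region, passed; it had 27.4 CPM in ∆Foxp3 cells of mouse 2 and 2.15 to 3.27 CPM in the other 5 samples, and without mouse 2 its log2 change was -0.25 (edgeR adjusted p = 0.891).

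Several programmes gave no calls. In 13 lists with 164 tested members in all, no gene passed with edgeR, DESeq2 without independent filtering or limma-voom, and 24 had an unadjusted p under 0.05. Over all 9868 tested genes 2.38% passed with edgeR and 903 had an unadjusted p under 0.05. At such a share a short list would often hold no call, so its lack of calls says little. The 13 lists include 46 interferon response genes (median -0.07), 15 of glycolysis (-0.02), 17 of sterol synthesis (-0.04), 12 heat shock chaperones (-0.01), 12 of the BCL-2 family (-0.04), 9 Tfh genes (-0.11), 2 each of Th2 and Th17 (-0.05 and -0.40), and markers of plasma cells (1), myeloid cells (5) and CD8 T or NK cells (4). The T cell identity and respiratory chain lists complete the 13. No marker of gamma delta or NKT cells had counts enough to be tested. Single calls came from the lists of interferon-gamma inducible GTPases (Irgm2, -0.58), proliferation (Stmn1, -0.32), T cell receptor signal strength (Ly6c1) and IL-2 and STAT5 targets (Il2ra). Pairs of calls were Cxcr3 (-0.88) and Il18r1 (0.44) of the Th1 list, Cxcr3 and Cxcr4 of homing, Il7r and Il18r1 of cytokine receptors, and the class I genes H2-Q6 and H2-Q7 (0.25 and 0.18), which are close paralogs and so uncertain. Of 19 inhibitory and costimulatory receptors 4 fell, Ctla4, Tnfrsf4, Tnfrsf9 and Cd200 (-0.61), and of 10 activated T cell markers 2 fell.

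Ctse and Crip1 differed in each of the 3 clusters of resting Tconv. Ctse had 17.4 CPM ± 3.10 in ∆Foxp3 and 155 ± 11.999 in WT cells of the main cluster (SD, n = 3), 19.1 ± 2.68 and 184 ± 18.6 in the Irf7 cluster, and 9.39 ± 9.17 and 136 ± 29.6 in the TCRhi cluster. Crip1 likewise had 755 ± 98.7 against 210 ± 38.2, 649.0 ± 54.0 against 207 ± 9.25, and 716 ± 251 against 159 ± 49.0 CPM. Both passed in all 3 clusters with edgeR. Sox4 passed in the main cluster (log2 change -1.08) and had similar means of 24.02 and 27.5 CPM in the TCRhi cluster, at 148432 to 440457 UMIs per sample; the difference between clusters was not tested. In the TCRhi cluster Ttc13 and Gt(ROSA)26Sor had log2 changes of 1.15 and -0.40 (edgeR adjusted p = 0.608 and 0.916), and both passed in the other 2 clusters. Tnfrsf4 and Ikzf2 passed in the main cluster alone, with log2 changes of -1.28 and -1.57 in the Irf7 cluster and -1.22 and -1.07 in the TCRhi cluster.

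In the activated Tconv of the same mice 21 of 8522 genes passed, or 0.246%. Of the 235 genes called in resting cells 214 were tested there: 7 passed in the same direction, none in the opposite direction, and 189 had the same sign. Ctse (-2.65), Crip1 (1.54) and Ttc13 (1.001) were among the 7. Ctse had 20.2, 43.3 and 23.02 CPM against 166, 210 and 197 CPM. The count of 21 became 524 without mouse 2.

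Between ∆Foxp3 and WT intact mice far more genes passed, 1971 of 10070 (19.6%) in V2 and 4242 of 10102 (42.0%) in V3 resting Tconv. Those counts fell to 457 without WT sample A and 556 without WT sample B (V2), and to 2647 without WT sample 1 (V3). Of the 235 chimera calls, 46 passed in the same direction and 57 in the opposite direction in V2, of 230 tested, and 46 and 130 in V3, of 234 tested. Within the 18 calls near the loci, 9 passed in the same direction and 3 in the opposite direction in V2, and 9 and 7 in V3. Activated T cell markers were higher in the intact ∆Foxp3 cells of this class than in intact WT cells. Of the 10 markers 8 rose in V2 and all 10 in V3, with medians of 2.37 and 4.65. GFP stood at 27.1 and 46.4 CPM in V2 and at 186 and 189 CPM in V3 ∆Foxp3 samples. Against the 2.05 to 7.56 CPM of the chimera ∆Foxp3 cells, GFP moves with the contrast, and its part in these differences was not tested.

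Several Treg and activation genes that fell in the chimera cells rose in intact ∆Foxp3 mice. Tnfrsf4 changed by 2.91 (V2) and 2.74 (V3) where the chimera value was -1.21, Ikzf2 by 2.06 and 4.36 (-1.08), Cxcr3 by 2.31 and 4.73 (-0.88) and Ctla4 by 1.90 and 2.50 (-1.06). Dapl1 fell by 1.59 and 4.56 on the log2 scale in V2 and V3. In a joint fit of chimera and V3 samples 3409 of 10102 genes (33.7%) differed between the 2 contrasts, Tnfrsf4, Ikzf2, Cxcr3, Ctla4 and Dapl1 among them. Sox4 fell in V3 (-2.37) as in the chimeras and did not pass in V2 (-0.32; edgeR adjusted p = 0.244).

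**Figure D5:**
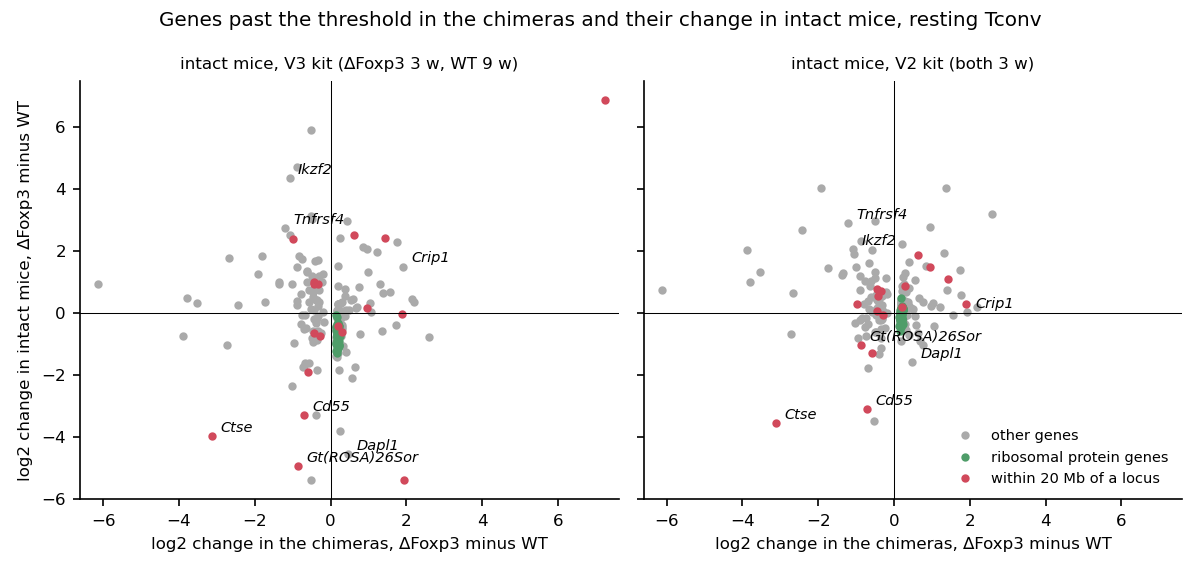
Log2 change (∆Foxp3 minus WT) of the genes called in resting Tconv of the chimeras (x axis) against that in resting Tconv of intact mice (y axis), V3 kit left and V2 kit right. Ctse, Cd55 and Gt(ROSA)26Sor are low on both axes in both panels, while Tnfrsf4 and Ikzf2 lie at the upper left and ribosomal protein genes (green) lie below 0 in V3.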

How the data were processed

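Single splenic CD4 T cells were counted with 10x Genomics kits. The deposited counts are UMIs per gene and cell, made with Cell Ranger 3.0.2 on mm10 per the submitters' processing notes; strand use, cell filters and the assignment of Foxp3, GFP, Cre and YFP reads were not stated in any source used. The Foxp3 row of that matrix equals Foxp3 plus GFP counts in WT and Foxp3 plus Cre counts in ∆Foxp3 cells in all 26652 cells, so the separate deposited Foxp3 counts replaced it. The percent of mitochondrial UMIs and the Scrublet doublet score per cell are deposited by the authors, per the file headers; no cell was removed here by either. Classes are the authors' annotation, and 46 metadata columns were not used.

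UMIs were summed over resting Tconv of each sample and tested with edgeR 4.0.16 in R 4.3.3 (TMM; quasi-likelihood; filterByExpr, minimum count 10; Benjamini-Hochberg threshold 0.05) with mouse as a block: by the labels, samples of equal number share 1 hashtag and 1 animal. Deviations of same-mouse samples correlated at 0.12, 0.0472 and 0.0714 over 7298 genes, others at -0.111 to 0.058. Replicates differed beyond counting error (chi-square per degree of freedom 1.55 to 2.60). CPM are UMI sums per 1000000 UMIs of the class without TMM scaling, which the log2 changes include. V2 samples had their own fit, and V3 intact samples 1 joint fit with the chimeras without a block. Alternatives used DESeq2 1.42.0, limma 3.58.1, other scalings, filters, cells and windows. Paired values used exact permutation in scipy 1.17.1; Python 3.11.15, numpy 2.4.6, pandas 2.3.3 and matplotlib 3.10.9 made sums and figures.

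Gene positions come from GENCODE M21 (the mm10 assembly): 30242 symbols matched by name, 1608 by an older name, and 1156 of 33006 were not placed. A gene counts as near a locus when its start lies within 20 Mb. Named genes had to pass, to average 10 CPM or more and to have 1 sign in 3 mice: the 15 highest and 15 lowest elsewhere and all near the loci. Added were, whatever their values, up to 3 members of each list with the lowest p, Foxp3, Ptprc and the reporters. Other genes in the text were picked out after their values were seen. Of 596 members of 34 lists 583 were in the matrix. The members of the comparison and the lists were chosen with earlier results of these data known.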

Additional observations from a re-analysis of the deposited data

Results flagged for a closer look

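The difference between genotypes in V3 intact mice was set against that in the chimeras in 1 model of resting Tconv without a mouse block (edgeR, Benjamini-Hochberg adjustment over all genes), and 42 of the named genes past the chimera threshold differed between the 2 contrasts. The values are log2 changes in V3 intact mice minus those in the chimeras. V3 intact groups differ in age as well as genotype, so the 2 cannot be told apart, and the cause of each difference was not tested.

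The change had the opposite sign in intact mice for 28 genes: Tnfrsf4 (3.97), Ikzf2 (5.47), Tnfrsf9 (1.94), Tagap (1.10), Gpr83 (1.19), Hdgfrp3 (1.45), Fabp5 (2.44), Nfkbid (1.61), Tagap1 (-2.13), Fam46a (-1.47), Lgmn (-2.37), Ly6c1 (-2.69), Dapl1 (-5.03), mt-Nd3 (-1.67), Mapkapk2 (1.44), Zfp281 (-0.90), Ybx3 (3.41), Ptms (1.34), Cd69 (1.26), Rpl32 (-0.61), Nfkbia (1.45), Irgm2 (1.27), Il2ra (2.32), Cxcr3 (5.58), Ctla4 (3.61), Stmn1 (1.99), mt-Nd2 (-2.08) and mt-Nd4 (-1.41). It had the same sign and was larger in intact mice for 10: Sox4 (-1.33), Il18r1 (2.60), Ctse (-0.83), Cd55 (-2.58), Cxcr4 (1.81), Ikbke (-0.47), Gt(ROSA)26Sor (-4.06), Clec2i (-1.30), H2-Q7 (0.69) and H2-Q6 (2.18). It had the same sign and was smaller in intact mice for 4: Rnaset2b (0.44), Crip1 (-0.42), Ttc13 (-0.75) and Mfsd4 (-0.82). Ctse, Crip1 and Ttc13 therefore differ in size between the contrasts but not in direction.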

How the results depend on the processing

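The 235 calls became 356 with mouse and 10x channel in the model, 109 with DESeq2 (876 genes with an adjusted p), 101 with DESeq2 without independent filtering and 119 with the 4 V3 groups in 1 fit. The 151 higher genes became 235, 86 (DESeq2 without independent filtering) and 82 (4 groups), and the 84 lower genes 5 (DESeq2), 15 (without independent filtering), 37 (4 groups) and 55 without cells with 2 Treg markers. The 18 calls near the loci became 1 with DESeq2, 7 without independent filtering and 4 within 5 Mb, and the 217 elsewhere became 332 with channel, 108 with DESeq2, 94 without independent filtering and 106 with 4 groups. Leaving out 1 mouse gave 26 to 358 calls, 14 to 191 higher, 12 to 167 lower, 6 to 25 near the loci and 20 to 333 elsewhere. Leaving out 1 sample gave 457 to 2658 calls in V2, 2647 to 4085 in V3 and, leaving out 1 mouse, 15 to 524 in activated Tconv. Such fits have fewer samples, and the other causes were not tested.

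Without the replicate block that pairs samples of 1 mouse, 170 genes passed, all among the 235, with 53 lower, and 5 of 21 remained in number in activated Tconv. A replicate block gave 2178 calls in V2 and 4251 in V3. Of 60 named genes past the threshold, 18 kept it under each of the 15 alternatives that gave them a value. A gene without a value was not counted against, and DESeq2 with its independent filtering gave a value to 11 of the 60. Of 838 values 2 turned: Igkc had -0.25 without mouse 2 (2.91 without mouse 3), and Hbb-bs 0.99 without cells with 2 markers of another type. The alternatives on cluster, Treg markers and DESeq2 without independent filtering were chosen after seeing the data. Depth limits genes under about 10 CPM, and 3 mice cannot give an exact paired p under 0.25.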

Other observations

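Translation elongation and initiation factor genes, gathered by symbol after the ribosomal protein genes were seen, moved less than those genes: of 60 tested, 6 rose, none fell and 33 estimates were positive in resting Tconv of the chimeras, with a median of 0.02. Without mouse 3 none passed with edgeR.

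Of 155 called genes with a known position that are neither ribosomal nor mitochondrial, 49 lay within 1 Mb of another, in 20 runs. The share among all tested genes was not computed, so the count is no measure of linkage. Some runs hold related copies, such as Hba-a1 and Hba-a2, Hbb-bt and Hbb-bs, H2-Q6 and H2-Q7, and the Tagap and Rnaset2 genes.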
